A study of Rattus norvegicus with 6 samples.

Results

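The 9 genes described here encode enzymes and a chaperone that modify collagen: the prolyl hydroxylase subunits P4ha1 and P4ha2, the lysyl hydroxylases Plod1, Plod2 and Plod3, the lysyl oxidases Lox, Loxl1 and Loxl2, and the collagen chaperone Serpinh1. Their members were all probe sets that the array annotation assigned to a single one of these symbols. These were 13 of 20826 probe sets with 1 symbol, for 9 of 14217 genes named on the array. No member probe set named several genes. All 13 had a mean signal over the 6 arrays above the filter of 61.6, so all were tested. Loxl1, Plod1, Plod2, Plod3 and P4ha1 had 1 probe set each, and Lox, Loxl2, P4ha2 and Serpinh1 had a pair.

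Newly made collagen chains are hydroxylated on proline and lysine inside the endoplasmic reticulum by enzymes that need oxygen, iron, oxoglutarate and ascorbate. Prolyl hydroxylation by tetramers of P4ha and P4hb subunits lets the triple helix hold at body temperature, lysyl hydroxylation by the PLOD enzymes sets the type of crosslink that can form, and Serpinh1 (HSP47) binds the folded helix on its way out. Outside the cell, copper-dependent lysyl oxidases oxidise lysine residues of collagen and elastin, which then form covalent crosslinks. Several of these genes, P4ha1, P4ha2, Plod2, Lox and Loxl2 among them, are known targets of the hypoxia-inducible factor HIF.

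Gene expression was measured in 3Y1 cells, a line of rat embryonic fibroblasts, with 1 Affymetrix array per RNA sample in 3 groups of 2. The first group carried an empty vector and grew in culture (Vector), the second carried a stably transfected vector for the cytoplasmic domain of the mucin MUC1 and grew in culture (MUC1-CD culture), and the third was the MUC1-CD line grown as tumors under the skin of the hindlimbs of female athymic mice (MUC1-CD tumor). Both lines were stable transfectants; whether each was 1 clone or a pool, the age of the mice and the number of cells injected for the profiled tumors are not given in sources used here. Athymic mice lack mature T cells but keep other blood, vessel, muscle and connective tissue cells, and tumors were frozen, homogenised and purified over columns, steps that go with growth in the animal and cannot be told apart from it. The labels call the samples of a group biological replicates and do not say what was separate between them.

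Values are MAS5 signals, an intensity per probe set on a linear scale, with the SD over 2 arrays where a mean is printed. A change is a difference in log2(signal + 16), shown with limma's standard error, on a scale that understates changes of low signals, and p values come from limma, adjusted by Benjamini-Hochberg over 18625 probe sets, with 0.05 as the threshold. Where a gene had a pair of probe sets, the one with the higher mean signal represents it in counts, and both are described. The number of arrays limits the precision of every value.

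The Vector arrays differed from the others in the 3' to 5' signal ratios of control genes, a possible sign of RNA quality that was not tested. The ratio of 3' to 5' Gapdh signal was 11.5 and 17.8 on Vector replicates 1 and 2 and 1.11 to 1.18 on the other 4 arrays, and the beta-actin ratio was 4.15, 41.7 and 2.97 to 3.37. The replicates of the Vector group also differed more from each other (SD of the log2 difference over probe sets 0.616) than those of MUC1-CD culture (0.257) or of the tumors (0.284). This difference and the empty vector cannot be told apart. The fibroblast markers Vim and Fn1 had signals of at least 20239 and 12355 on every array, and the epithelial marker Epcam was at 22.2 or less.

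Promoter sequences from RefSeq (GRCr8) are shown for P4ha1 and P4ha2, which were lower in tumors together, and for Plod2, which was higher in MUC1-CD cells. Each runs from 250 bases before to 50 bases after the annotated start, 5′ to 3′ on the gene's strand, with matches to the core letters of the hypoxia response element in capitals: ACGTG or GCGTG, searched on both strands. The P4ha1 start in the table lies inside the gene's full span, so it may not be the start used in these cells.
P4ha1, chr20:27844796-27845095, plus strand: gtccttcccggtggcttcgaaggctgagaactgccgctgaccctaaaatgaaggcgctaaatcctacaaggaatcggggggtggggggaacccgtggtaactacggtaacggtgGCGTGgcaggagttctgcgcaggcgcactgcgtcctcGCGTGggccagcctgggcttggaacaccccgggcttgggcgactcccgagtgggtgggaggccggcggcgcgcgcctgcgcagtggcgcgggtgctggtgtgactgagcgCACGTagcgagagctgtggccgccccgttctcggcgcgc
P4ha2, chr10:38743644-38743943, plus strand: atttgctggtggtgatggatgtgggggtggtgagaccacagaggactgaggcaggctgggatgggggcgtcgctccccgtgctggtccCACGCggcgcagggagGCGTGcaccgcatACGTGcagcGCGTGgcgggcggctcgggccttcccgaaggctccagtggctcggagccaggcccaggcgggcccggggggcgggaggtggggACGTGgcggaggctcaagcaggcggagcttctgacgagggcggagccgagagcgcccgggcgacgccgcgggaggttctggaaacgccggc
Plod2, chr8:101964068-101964367, plus strand: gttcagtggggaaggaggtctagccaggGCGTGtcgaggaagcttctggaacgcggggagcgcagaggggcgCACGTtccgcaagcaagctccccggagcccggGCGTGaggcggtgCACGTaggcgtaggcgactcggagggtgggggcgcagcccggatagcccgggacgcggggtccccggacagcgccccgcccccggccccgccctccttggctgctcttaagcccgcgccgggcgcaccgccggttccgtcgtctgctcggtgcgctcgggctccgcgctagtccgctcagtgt

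The P4ha2 promoter held 5 such matches, that of Plod2 held 4, that of P4ha1 held 3, that of Plod3 held 2 and that of Plod1 held 1. The promoters of Serpinh1 and Loxl1 held 0, and 2 members had no entry in the table. Over all 33469 promoters of the same length, 41.6% held at least 1 match and 19.2% at least 2. These 5-letter words are short and rich in G and C. The GC content of the P4ha1, P4ha2 and Plod2 promoters was 68.3%, 73.3% and 73.7%. It was 69.7% for Plod3, 63.3% for Plod1, 60.7% for Serpinh1 and 61% for Loxl1. The part of GC content in the counts of matches was not tested. Paired heat shock letters (GAANNTTC or TTCNNGAA, both strands, overlaps counted) occurred in 15.9% of all promoters and 2 times in that of Serpinh1, a known target of heat shock factor, at positions -35 and -30 from the start. They also occurred 2 times each in the promoters of Plod2 and P4ha2 and 1 time in that of Plod1. The letters CAGACA, like those bound by SMAD proteins, occurred in 21.1% of all promoters and, of the 7 member promoters, only in that of Loxl1. A match describes the letters and not a bound site.

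**Figure D1:**
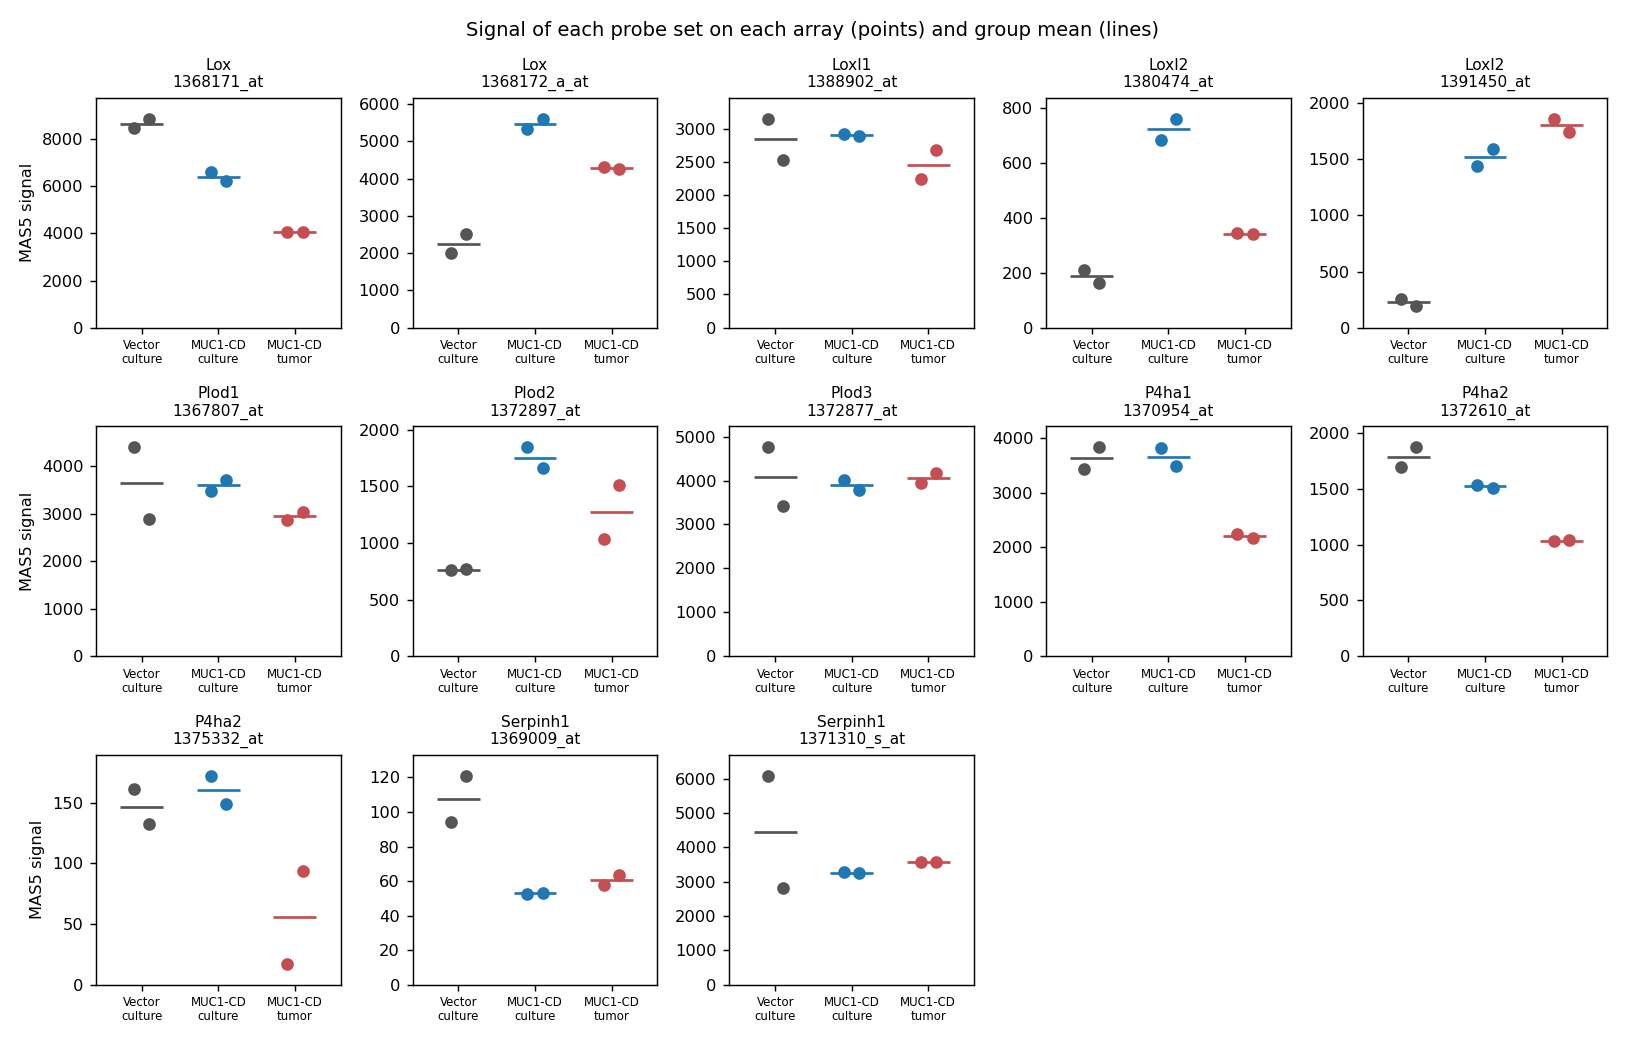
MAS5 signal (linear axes from 0, a scale of its own in each panel) of the 13 probe sets on each of the 6 arrays. Points are arrays and lines are group means of 2 arrays. Both Loxl2 probe sets and Plod2 are lowest in Vector cells, P4ha1 and P4ha2 are lowest in tumors, and the Lox probe sets order the Vector group oppositely.

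Cultured MUC1-CD cells were set against Vector cells to find which of these genes go with the MUC1 domain outside an animal. Loxl2, a lysyl oxidase of collagen IV and fibrillar collagen, and Plod2, the lysyl hydroxylase that acts on the ends of the collagen chain, rose. Lox, the founding lysyl oxidase, fell on the probe set that represents it and rose on its other one. Of the 9 genes, 2 were called higher (21.2% of 10037 genes tested were) and 1 lower (24.9% of all genes), with a median change of 0.01 against -0.04 over all genes, so neither count is far from the background. The other 6 genes, Loxl1, Plod1, Plod3, P4ha1, P4ha2 and Serpinh1, were not called.

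On probe set 1391450_at, Loxl2 had signals of 258 and 195 on the Vector arrays, 1440 and 1593 in MUC1-CD culture and 1861 and 1746 in tumors. Both MUC1-CD groups lay far above the Vector arrays, with no overlap. The rise in culture was 6.36-fold (log2 change 2.67 ± 0.17, limma adjusted p = 8.53e-05). On the second probe set, 1380474_at, Loxl2 had signals of 212 and 163 in Vector cells, 686 and 762 in MUC1-CD culture and 345 and 341 in tumors. There the rise in culture was 3.66-fold (log2 change 1.87 ± 0.18, adjusted p = 0.000371), and the Vector arrays were again the lowest. Both probe sets of Loxl2 were called higher in culture under every alternative run, from 2.27 to 2.86 for the gene and from 1.57 to 2.05 for the second probe set.

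Plod2 had signals of 759 and 770 on the Vector arrays, 1845 and 1661 in MUC1-CD culture and 1031 and 1512 in tumors. The groups did not overlap, and the tumor arrays lay between the others and apart from each other. The rise in culture was 2.26-fold (log2 change 1.18 ± 0.19, limma adjusted p = 0.00313), and it was called under all 17 alternatives, at 0.86 to 1.25. The Vector arrays, which differed widely for other members, differed by only 0.02 on the log2 scale for Plod2. Every alternative for Loxl2 and Plod2 kept a Vector array, so the part of the 3' to 5' ratios in these rises was not tested.

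Lox could not be given 1 direction against Vector. On probe set 1368171_at, annotated to its RefSeq transcript, the signals were 8465 and 8872 in Vector cells, 6605 and 6223 in MUC1-CD culture and 4077 and 4058 in tumors. This is a fall in culture of 0.43 (SE 0.08) on the log2 scale (limma adjusted p = 0.00639). On probe set 1368172_a_at, whose suffix marks a set that can match several transcripts of 1 gene, they were 1993 and 2507, 5332 and 5609, and 4321 and 4265. There Lox rose in culture by 1.28 ± 0.13 (adjusted p = 0.000434). The log2 signal of the second probe set minus the first was -2.08 and -1.82 on the Vector arrays, -0.31 and -0.15 in MUC1-CD culture and 0.08 and 0.07 in tumors, so the Vector arrays were the ones that stood apart. The mean of the probe sets gave a rise of 0.43 (adjusted p = 0.0119), and without MUC1-CD culture replicate 2 the fall on the first probe set was not called (-0.39, adjusted p = 0.0759). The part of the Gapdh 3' to 5' ratios in this disagreement was not tested.

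Among the members that were not called, several had Vector arrays far apart. The chaperone Serpinh1 had signals of 6091 and 2817 on the Vector arrays, 3281 and 3249 in MUC1-CD culture and 3565 and 3569 in tumors on probe set 1371310_s_at, whose suffix marks a set that can match transcripts of several genes. The 4 MUC1-CD arrays lay within the range of the Vector pair. The change in culture was -0.34 (95% interval -1.09 to 0.41), and it was 0.21 without Vector replicate 1 (limma adjusted p = 0.0351) and -0.90 without Vector replicate 2 (adjusted p = 3.25e-06), so the left-out array decided its direction. The low probe set 1369009_at of Serpinh1 had signals of 94.4 and 121 in Vector cells and 52.6 and 53.2 in MUC1-CD culture. Its means of 52.9 in MUC1-CD culture and 60.7 in tumors were below the filter of 61.6, so it passed through the Vector arrays. Its fall of 0.84 (SE 0.25, limma adjusted p = 0.0319) is thus in part fixed by the filter. It was called in 6 of its 15 alternatives. The mean of the Serpinh1 probe sets, which takes in this low one, gave -0.59 in culture against Vector and was called lower (limma adjusted p = 0.0254).

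Plod1, a lysyl hydroxylase of helical lysines, had signals of 4397 and 2885 in Vector cells, 3481 and 3713 in MUC1-CD culture and 2870 and 3035 in tumors. Its change in culture of 0.01 (95% interval -0.44 to 0.47) became 0.32 without Vector replicate 1 (limma adjusted p = 0.00765) and -0.29 without Vector replicate 2 (adjusted p = 0.0124). Plod3, which hydroxylates lysine and also adds sugars to it, had signals of 4758 and 3421, 4022 and 3794, and 3951 and 4170 in the same order of groups, a change of -0.05 (-0.43 to 0.33). It was 0.19 without Vector replicate 1 (adjusted p = 0.0626) and -0.28 without Vector replicate 2 (adjusted p = 0.0112). For these genes the direction against Vector is that of the Vector array kept.

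Loxl1, the lysyl oxidase tied to elastic fibres, had signals of 3148 and 2529 in Vector cells, 2916 and 2893 in MUC1-CD culture and 2241 and 2673 in tumors. Its change in culture was 0.04 (95% interval -0.31 to 0.39), and the groups overlapped. The catalytic prolyl hydroxylase subunit P4ha1 had signals of 3429 and 3837 in Vector cells and 3817 and 3501 in MUC1-CD culture, a change of 0.01 (-0.25 to 0.27). For P4ha2, its paralog, they were 1697 and 1876 against 1537 and 1511 on 1372610_at, a change of -0.23 (-0.51 to 0.05, limma adjusted p = 0.160). Without Vector replicate 1 the change was -0.30, and it was called with each array divided by its median (-0.55, limma adjusted p = 0.0115). The second probe set, 1375332_at, had signals of 161 and 132 in Vector cells and 172 and 149 in MUC1-CD culture. There the change was 0.12 ± 0.52 and not called (limma adjusted p = 0.867). The mean of the P4ha2 probe sets gave -0.05 (limma adjusted p = 0.891).

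**Figure D2:**
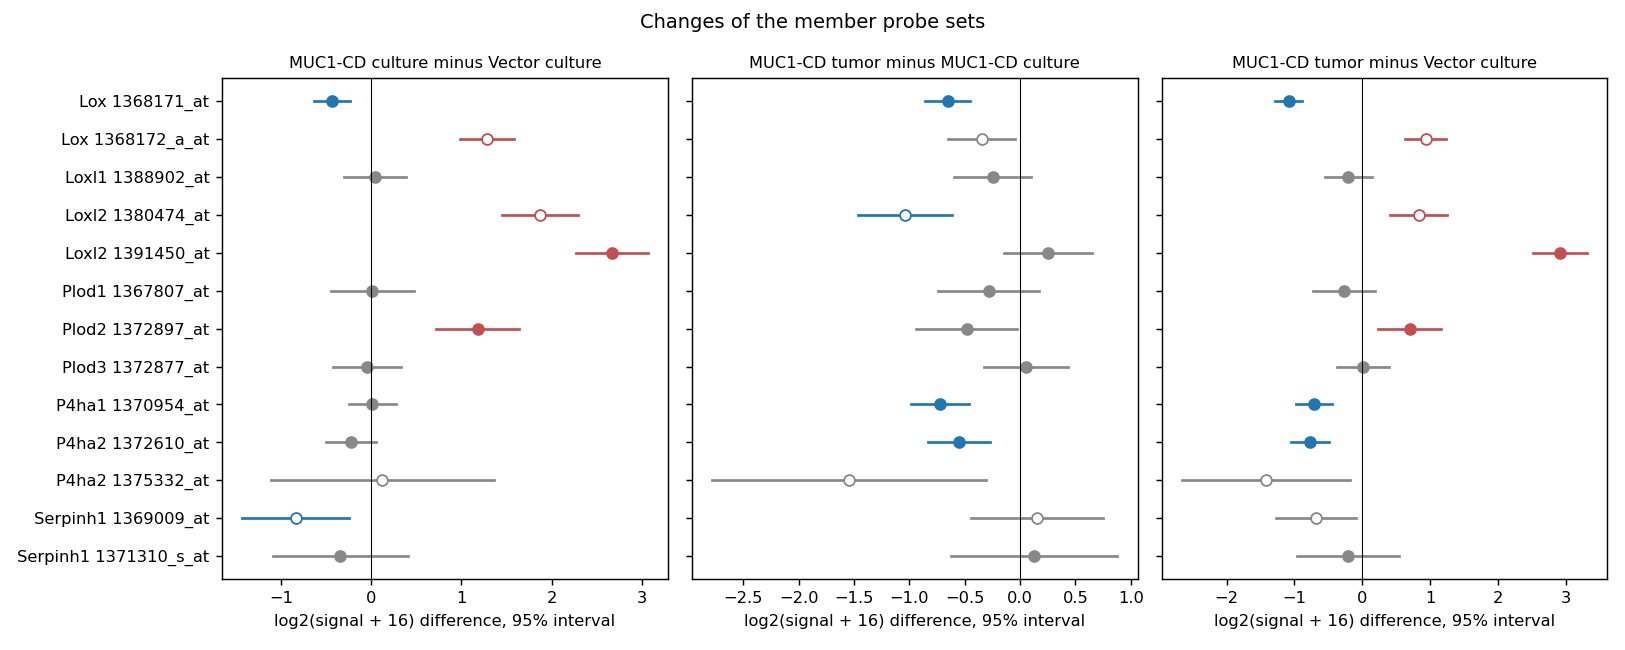
Changes in log2(signal + 16) of the 13 probe sets in the 3 comparisons, with 95% intervals from limma. Red is called higher, blue called lower and grey not called; filled points are the probe sets that represent a gene and open points the other ones. Loxl2 and Plod2 are to the right in both comparisons with Vector, and P4ha1, P4ha2 and Lox 1368171_at are to the left in both comparisons of tumors.

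**Figure D3:**
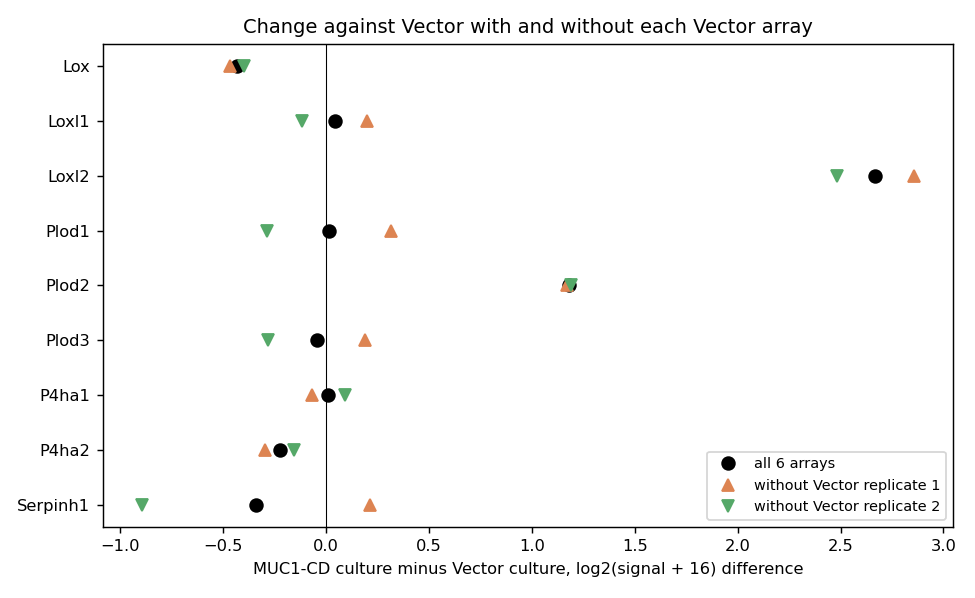
Change of each gene from Vector to MUC1-CD culture (log2(signal + 16) difference) with all 6 arrays and without each Vector array in turn. Serpinh1, Plod1, Plod3, Loxl1 and P4ha1 lie on opposite sides of 0 with one or the other Vector array left out, while Loxl2 and Plod2 stay high.

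Tumors were set against cultured MUC1-CD cells, the comparison of growth in the animal with growth on plastic. P4ha1, P4ha2 and Lox fell, and no member rose on the probe set that represents it. That is 3 of 9 genes called lower, where 8.97% of all genes tested were, and 0 called higher, where 9.82% were. The median change of the members was -0.28, against 0.03 over all genes. For 6 of the 9 genes (Lox, Loxl1, Plod1, Plod2, P4ha1 and P4ha2) both tumor arrays lay below both culture arrays, as they did for 35.0% of all genes. In a bulk tumor, fewer cells of a type and less RNA per cell cannot be told apart.

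P4ha1 had signals of 3817 and 3501 in MUC1-CD culture and 2236 and 2179 in tumors, with no overlap. It fell by 0.72 (SE 0.11; limma adjusted p = 0.00702), to a tumor level of 2207 ± 40.4 (SD, n = 2). P4ha2 had signals of 1537 and 1511 in culture and 1032 and 1041 in tumors on probe set 1372610_at, and fell by 0.55 (SE 0.12; adjusted p = 0.0243). Its second probe set, 1375332_at, was low, with signals of 172 and 149 in culture and 17.3 and 93.7 in tumors. The tumor mean of 55.5 was below the filter of 61.6, so this probe set passed through the cultured groups. Its change of -1.54 ± 0.52 was not called (limma adjusted p = 0.0948). Both subunits had their lowest arrays in the tumor group.

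Lox was lower in tumors on both probe sets, unlike against Vector. On 1368171_at it fell by 0.65 (SE 0.08; limma adjusted p = 0.00411), and on 1368172_a_at the change was -0.35 ± 0.13 and not called (adjusted p = 0.117). The tumor arrays lay below the culture arrays on each.

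These calls depended on the arrays of the comparison. P4ha1 was not called without MUC1-CD culture replicate 1 (-0.66) or 2 (-0.79), or without tumor replicate 1 (-0.74) or 2 (-0.70), at limma adjusted p = 0.0656 to 0.100. P4ha2 was not called without culture replicate 1 (-0.54) or 2 (-0.56) or tumor replicate 1 (-0.54) or 2 (-0.56), at adjusted p = 0.168 to 0.199. Lox was not called without culture replicate 1 (-0.61) or tumor replicate 1 (-0.66) or 2 (-0.65), at adjusted p = 0.0599 to 0.0706. P4ha2 was also not called without the mean-variance trend (adjusted p = 0.0506). Each such fit takes the lone array of a group to vary as the remaining groups do, and all 3 genes kept their direction.

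Loxl2 gave different answers by probe set in tumors. On 1380474_at it fell by 1.04 (SE 0.18; limma adjusted p = 0.0116), from 724 ± 53.6 to 343 ± 2.90 (SD, n = 2). On 1391450_at, which represents the gene, the change was 0.25 ± 0.17 and not called (adjusted p = 0.359), though both tumor arrays lay above both culture arrays. It was called without Vector replicate 1 or 2 (adjusted p = 0.0468 and 0.0452) and was -0.02 with each array divided by its median, so its direction depended on the scaling. The fall on 1380474_at was called in 12 of 16 alternatives. The log2 difference between the probe sets was 0.27 and 0.24 on the Vector arrays, 1.05 on each culture array, and 2.38 and 2.30 in tumors, so here each group had a value of its own. Whether the probe sets match different transcripts of Loxl2, or mouse RNA of the host, was not tested.

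Plod2 lay lower in both tumors than in both culture arrays, but its tumor arrays were 0.55 apart on the log2 scale and the change of -0.48 ± 0.19 was not called (limma adjusted p = 0.142). It was called without Vector replicate 1 or 2, at adjusted p = 0.0230 and 0.0234, with the same change. Plod1 changed by -0.28 ± 0.19 (adjusted p = 0.364; 0.00762 and 0.00718 without Vector replicate 1 or 2). Loxl1 changed by -0.24 ± 0.15 (adjusted p = 0.301; 0.0414 and 0.0410 without Vector replicate 1 or 2). With both Vector arrays kept, Plod2 was also called with array weights (adjusted p = 0.0244) and with each array divided by its median (-0.75, adjusted p = 0.0443), and Plod1 with array weights (adjusted p = 0.0275). With only the groups compared in the fit, Plod2, Plod1 and Loxl1 were called at adjusted p = 0.0222, 0.00758 and 0.0417. Except with division by the median, the changes in these fits were the same, so the gains did not come from a larger change. The SD of the log2 difference between replicates was 0.616 for Vector, against 0.257 and 0.284 for the groups compared. The part of the Vector spread in these gains was not tested. Plod3 (0.05, 95% interval -0.32 to 0.44) and Serpinh1 (0.13, -0.63 to 0.88, and 0.15 on 1369009_at) had changes near 0.

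Tumors were also compared with Vector cells, which shares its arrays with the other comparisons. Loxl2 and Plod2 were called higher and Lox, P4ha1 and P4ha2 lower, 2 of 9 members against 24.8% of all genes and 3 against 26.6%. Loxl2 was 7.56-fold higher on 1391450_at (log2 change 2.92 ± 0.17, limma adjusted p = 4.68e-05) and 1.78-fold on 1380474_at (0.83 ± 0.18, adjusted p = 0.00805). Plod2 was higher by 0.70 ± 0.19 (adjusted p = 0.0220) and was called in 11 of 17 alternatives; without MUC1-CD culture replicate 1 or 2 or tumor replicate 2 it was not (0.70, 0.70 and 0.42, adjusted p = 0.0515, 0.0511 and 0.130), and with each array divided by its median it was 0.11. P4ha1 was lower by 0.71 and P4ha2 (1372610_at) by 0.77 on the log2 scale, values of -0.71 ± 0.11 and -0.77 ± 0.12 (limma adjusted p = 0.00197 and 0.00191). Both genes were called under all 17 alternatives. The second P4ha2 probe set, 1375332_at, was at -1.42 ± 0.52 and not called (limma adjusted p = 0.0572). Lox was at -1.09 ± 0.08 on 1368171_at (adjusted p = 0.000134) and at 0.94 ± 0.13 on 1368172_a_at (adjusted p = 0.00124), again in opposite directions, and the mean of its probe sets gave -0.08 (adjusted p = 0.542). Loxl1 (-0.20), Plod1 (-0.27), Plod3 (0.01) and Serpinh1 (-0.22, and -0.68 on 1369009_at) were not called. Serpinh1 was 0.34 without Vector replicate 1 (adjusted p = 0.00277) and -0.77 without Vector replicate 2 (adjusted p = 8.59e-06), and Plod3 was 0.25 (0.0204) and -0.23 (0.0290) in the same fits. Plod1 was 0.033 (0.752) and -0.57 (0.000158) in those fits, and Loxl1 was -0.047 (0.713) and -0.36 (0.0121). With each array divided by its median, Loxl1 (-0.80, adjusted p = 0.00417), Plod1 (-0.86, adjusted p = 0.00693) and Plod3 (-0.59, adjusted p = 0.0188) were called lower.

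As a description with no test, over 6 arrays that fall into 3 groups, the log2 signals of P4ha1, P4ha2 (1372610_at) and Lox (1368171_at) correlated with each other at r = 0.91 to 0.99. Those of Plod2 and the Loxl2 probe sets correlated at 0.82 and 0.92, and the second Lox probe set went with them (0.90 to 0.92). Plod3 and Serpinh1 (1371310_s_at) correlated at 0.93, where Vector replicate 1 was the highest array of each. The Lox probe sets correlated with each other at -0.60, and those of Serpinh1 at 0.16. Other genes were set only against the probe set that represents a member. Of the 10036 other genes, 405 had r above 0.95 with Lox on 1368171_at. They were led by the junction protein gene Pkp4 (0.999), the receptor adaptor gene Grb10 (0.998) and Syne2, of the nuclear envelope (0.998). With P4ha1 184 genes did, led by Wdfy3, the cholesterol acyltransferase gene Soat1 (0.995 each) and Cd2ap (0.993). With Plod2 74 did, led by the exonuclease gene Xrn2 (0.994), Ostf1 (0.986) and Aadat (0.985), and with Serpinh1 56 did, led by Mrpl14 (0.997), the aldehyde dehydrogenase gene Aldh2 (0.992) and Scamp4 (0.991).

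Genes that work beside the members were read from lists. A gene counts as measured where its mean signal over all 6 arrays passed the filter, so a gene high in only 1 group can enter through that group; the counts describe the measured genes and not whole lists. Over all genes tested, 21.2% rose and 24.9% fell in culture against Vector, and 9.82% rose and 8.97% fell in tumors against culture. In MUC1-CD culture against Vector, 5 of 12 measured partners of collagen modification fell (of 16 listed) and 0 rose, with a median of -0.31: the foldase gene Fkbp7 (-2.78), P3h3 (-1.58), the third prolyl hydroxylase subunit P4ha3 (-1.45), P3h4 (-1.11) and Fkbp10 (-0.98). The partners numbered 2 higher and 5 lower without Vector replicate 1 (median -0.22), 1 and 9 without Vector replicate 2 (-0.56), and 0 and 8 with each array divided by its median (-0.63). P4hb, which pairs with the P4ha subunits, had a change of -0.37 that was not called (limma adjusted p = 0.0652). In tumors against culture, P3h3 rose by 1.52, Fkbp14 fell by 0.54, and the other 10 measured partners were not called, P4hb at 0.006 and P4ha3 at -0.18; 3 rose without Vector replicate 1 and 2 without Vector replicate 2, and 0 fell without any 1 culture or tumor array. Of 6 measured genes of procollagen export and processing (of 13 listed), 4 fell and 1 rose in culture against Vector: Creb3l1 (-1.74), the enhancer of propeptide removal Pcolce (-1.33), Mia2 (-0.97) and the procollagen protease gene Bmp1 (-0.62) fell, and Mia3 rose by 0.40. In tumors Bmp1, which also activates Lox, rose by 0.88 and Mia3 fell by 0.51; without any 1 culture or tumor array neither was called, and without either Vector array 2 genes of the list rose and 1 fell. In culture against Vector 3 fell and 0 rose without either culture array.

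Collagens are the substrates of the members. Of 7 measured fibrillar collagen genes, 6 fell in MUC1-CD culture against Vector and 1 rose, with a median of -1.39; Col11a1 fell by 5.40 (log2), Col3a1 changed by -1.48 and Col1a1 by -1.39, and Col5a1 rose by 1.13. In tumors against culture, 4 of these 7 rose and 0 fell, with a median of 0.66. Col3a1 went from 5418 ± 186 to 15480 ± 767 (SD, n = 2), a rise of 1.51 ± 0.08 at a limma adjusted p of 0.000179, Col5a3 rose by 4.25, Col5a2 by 0.66 and Col1a2 by 0.37. Of 11 other collagen genes measured, 7 rose and 1 fell in tumors, led by Col6a1 (7.40), Col6a2 (6.86) and Col6a3 (5.47). Without culture replicate 1, culture replicate 2 or tumor replicate 2 the fibrillar count in tumors was 2, and without Vector replicate 1 or 2 it was 6 or 7; that of the other collagens was 4 without any 1 culture or tumor array and 8 without either Vector array. Of 7 measured elastic fibre genes, further substrates and partners of lysyl oxidases, 2 rose and 1 fell in tumors: Fbn1 (2.58) and Fbln2 (1.61) rose, and Fbln5, which tethers lysyl oxidases to elastic fibres, fell by 1.03. Without either Vector array 4 rose and 1 fell, without any 1 culture or tumor array 1 rose and 0 or 1 fell, and with each array divided by its median 1 rose and 2 fell. In culture against Vector 3 of them rose and 2 fell, with a median of 0.02 that was 0.61 without Vector replicate 1 and -0.31 without Vector replicate 2.

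**Figure D4:**
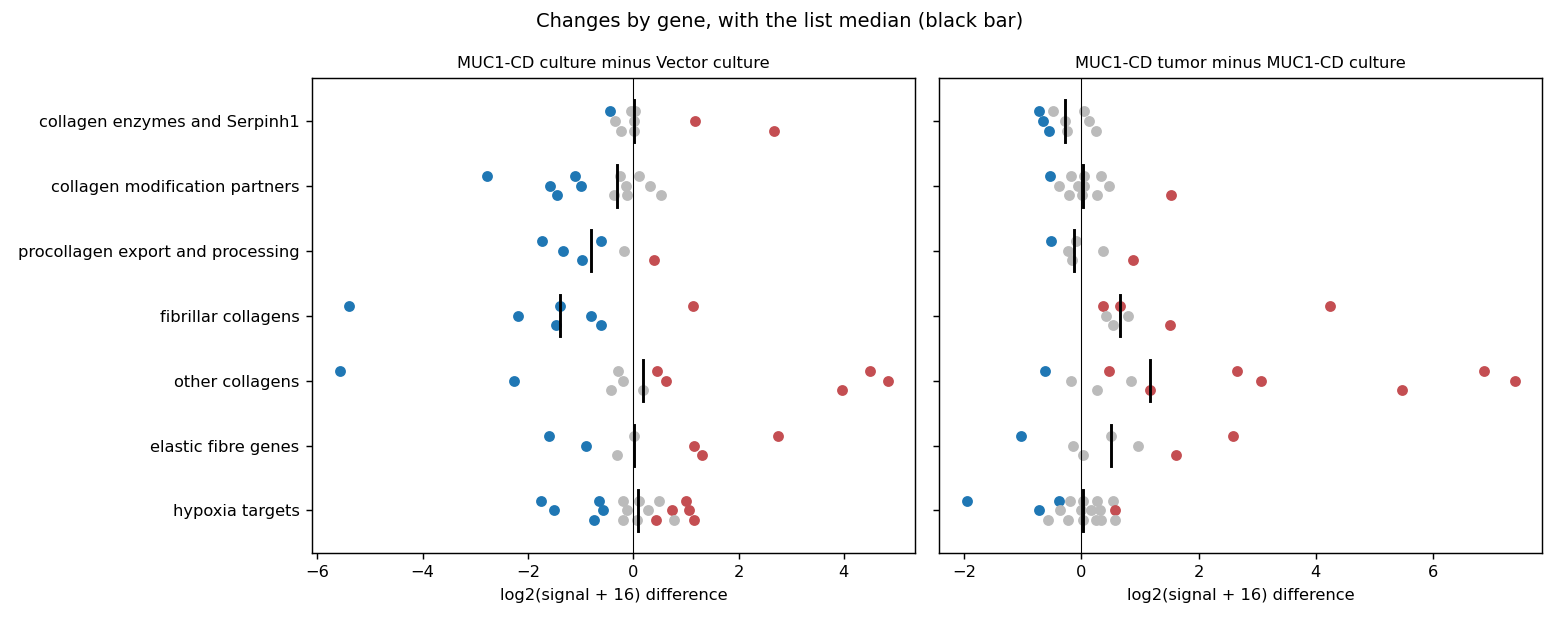
Change in log2(signal + 16) of each measured gene of 7 lists, from Vector to MUC1-CD culture (left) and from MUC1-CD culture to tumors (right). Red points were called higher, blue lower and grey not, and black bars are list medians. In tumors the median of the collagen enzymes and Serpinh1 is -0.28 while those of the collagen lists are 0.66 and 1.18.

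Of 18 measured hypoxia targets, a class that shares HIF control with several members, 5 rose and 5 fell in MUC1-CD culture against Vector. Without culture replicate 1 or 2 these were 2 and 3, or 2 and 2, and with each array divided by its median 4 and 8. In tumors against culture 3 fell and 1 rose, with a median of 0.04. Without either Vector array 6 fell and 4 rose, without any 1 culture or tumor array 1 or 2 fell and 0 rose, and with each array divided by its median 5 fell and 0 rose, so the balance of this list depended on the arrays kept. The carbonic anhydrase gene Car9 fell from 4006 ± 120 to 1023 ± 91.2 (SD, n = 2), a change of -1.96 ± 0.14 in log2 at a limma adjusted p of 0.000378, Bnip3 by 0.71 and Ldha by 0.37, and the glucose transporter gene Slc2a1 rose by 0.57. Vegfa (0.03) and Pgk1 (0.00) had values near 0. Of 15 measured chaperones and stress genes of the endoplasmic reticulum, where the hydroxylases and Serpinh1 work, 4 rose and 3 fell in culture against Vector, with Atf4 (-1.80) and Ddit3 (-1.72) the largest falls, and 2 rose and 0 fell in tumors (Atf4 by 0.71 and Ddit3 by 0.56), though the list's median there was -0.12. The tumor count gave no stable direction: it was 4 higher and 5 lower without either Vector array, 0 and 0 without any 1 culture or tumor array, and 1 and 5 with each array divided by its median. In culture against Vector the count was 8 and 3 or 7 and 5 without Vector replicate 1 or 2, 1 and 3 or 2 and 3 without culture replicate 1 or 2, and 1 and 4 with each array divided by its median. Of 10 measured TGF-beta targets, 3 rose and 3 fell in culture, among them Tgfbi (-6.30) and Ccn2 (-2.50), and 2 rose and 2 fell in tumors, among them Postn (6.19), a matricellular protein that promotes collagen crosslinking, and Ccn2 (-1.51). Without either Vector array 6 rose and 2 fell in tumors. In culture against Vector 5 rose and 4 fell without Vector replicate 1, 2 and 3 without culture replicate 1, and 0 and 3 without culture replicate 2.

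Among the genes listed as markers of host cell types that passed the filter, many were higher in tumors on the same arrays. Some passed only through the tumor arrays: 9 macrophage markers passed without tumor replicate 1 and 11 without tumor replicate 2, and 4 endothelial markers passed without either, so the counts of rises are in part fixed by the filter. Of 12 measured macrophage markers (of 17 listed) 8 rose and 1 fell, and their summed signal was 3394 and 3628 in culture and 7710 and 7738 in tumors. The rises were 5 without culture replicate 1 or 2 or tumor replicate 2, and 4 without tumor replicate 1. Of 5 measured endothelial markers (of 12) 4 rose, with sums of 486 and 510 against 2664 and 2653; 2 rose without culture replicate 2 or either tumor array. Of 10 measured skeletal muscle markers (of 15) 9 rose, with sums of 3324 and 3263 against 13621 and 12824; 5 rose without culture replicate 1 and 6 without tumor replicate 1. Of 12 measured stromal fibroblast markers (of 13) 7 rose and 1 fell, with sums of 63026 and 64706 against 98936 and 103708. Dcn and Lum rose by 3.78 and 4.45 and Pdgfra fell by 0.59. Vim and Fn1, used above as markers of the cultured fibroblasts, are in this list. On the Vector arrays the sums were 10243 and 10863 for muscle and 76679 and 74288 for stromal fibroblast markers. Those of macrophage and endothelial markers were 1198 and 1297, and 416 and 391. Signal of the muscle and stromal lists is thus not particular to host cells. Nor is that of the macrophage list, whose sums of 3394 and 3628 in MUC1-CD culture were above those of the Vector arrays. Endothelial markers also had some signal in both cultured groups. Of 2 measured adipocyte markers (of 8) 1 rose and 1 fell, with sums of 661 and 621 against 667 and 755, and of 2 measured keratinocyte markers (of 9) 1 rose, Cdh1, with sums of 102 and 140 against 706 and 609. The defining markers Adipoq, Epcam and Pecam1 were at most 30.3, 22.2 and 38.1 on all arrays, and Ptprc was at 50.6 to 90.0 in tumors. The part of these cells, and of mouse RNA read by rat probes, in the changes of the members was not tested.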

How the data were processed

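RNA of 6 samples in 3 groups of 2 was hybridised to Affymetrix Rat Genome arrays. The authors deposited a microarray intensity for each probe set, the MAS5 signal, per the submitters' processing notes; its version and any filter are not given in sources used here. Control probe sets (57 of 31099) were left out. Genes were named from a platform annotation (20826 probe sets with 1 symbol, 436 with several left unnamed), updated through Entrez identifiers to GRCr8. After log2(signal + 16), sets whose mean signal fell below the 40th percentile were dropped (18625 kept), and limma 3.58.1 in R 4.3.3 (lmFit, eBayes with trend) was fitted to all arrays with group as the only term (3 residual degrees of freedom). P values measure the spread between these arrays, which may be technical. The code was tested on simulated data. The genes named are all members, from each list at most the 4 genes of smallest adjusted p (further list members were named after their values were seen), and the 3 genes most correlated with Lox, Plod2, P4ha1 and Serpinh1. Members and lists were chosen with earlier results of these data known. Alternatives were other pseudocounts, filters, scalings, variance models, the replicate block, averaged probe sets and left-out arrays.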

Additional observations from a re-analysis of the deposited data

How the results depend on the processing

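The 2 rises and 1 fall among the 9 members in MUC1-CD culture against Vector became 2 and 2 with division of each array by its median, and 2 to 4 rises and 0 to 4 falls with 1 array left out. The 0 rises and 3 falls in tumors against MUC1-CD culture became 1 and 6 with only the groups compared in the fit, 0 and 5 with array weights, and 0 to 1 rises and 0 to 6 falls with 1 array left out. The 2 rises and 3 falls in tumors against Vector became 1 and 6 with division by the median, 1 and 3 with only the groups compared or with array weights, and 1 to 4 rises and 3 to 7 falls with 1 array left out. Over all probe sets, division by the median shifted the middle change of the 3 comparisons to -0.25, -0.21 and -0.46 (0.07, 0.05 and 0.12 otherwise). Rises then made up 33.2%, 22.3% and 25.1% of calls, in place of 54.7%, 53.9% and 56.5%. Calls in tumors against culture numbered 1590 higher and 1362 lower over all probe sets, 4360 and 3689 with only the groups compared, 4251 and 3547 with array weights, 929 and 3237 with division by the median, 4351 to 4373 and 3708 to 3724 without a Vector array, and 330 to 465 and 214 to 278 without a culture or tumor array. In culture against Vector 4665 and 3857 became 3083 and 6190 with division by the median and 2322 to 6434 and 2069 to 5069 with 1 array left out, and in tumors against Vector 5422 and 4167 became 2852 and 8511, and 3249 to 7112 and 2635 to 5322. Of 459 changes of single members under alternatives, 391 kept direction and call, 27 gained a call, 20 lost one and 21 turned sign; for those the cause was not tested. With division by the median, the values that turned were Loxl1 -0.28, Plod1 -0.31 and P4ha1 -0.31 in culture against Vector, Loxl2 -0.020, Plod3 -0.22 and Serpinh1 -0.14 in tumors against culture, and Plod3 -0.59 in tumors against Vector. Plod3 was 0.020 with quantile normalization in culture against Vector, and averaged probe sets gave Lox 0.43 there and Loxl2 -0.40 in tumors against culture. With 1 array left out, the changes that turned ranged in culture against Vector from -0.12 to 0.20 (Loxl1), -0.29 to 0.32 (Plod1), -0.28 to 0.19 (Plod3), -0.069 to 0.092 (P4ha1) and -0.90 to 0.21 (Serpinh1), and in tumors against Vector from -0.57 to 0.033 (Plod1), -0.23 to 0.25 (Plod3) and -0.77 to 0.34 (Serpinh1). The replicate numbers of the labels did not pair the arrays (correlations of replicate differences between groups of -0.02, -0.03 and -0.04); with the replicate block the counts were 2 rises and 1 fall, 0 and 3, and 2 and 3, and no member's call changed.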
